A study of Mus musculus with 6 samples.

Results

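Caseins and whey proteins are the main proteins that the milk-secreting cells of the mammary gland make for export. This account follows 8 of their genes, Csn1s1, Csn1s2a, Csn1s2b, Csn2, Csn3, Wap, Lalba and Glycam1, taken by symbol from a table of 16701 genes. Of these, 7 were listed and Wap was not. The data are polyadenylated RNA from luminal epithelial cells of the mouse mammary gland at 7 weeks of age, in 3 control libraries of wild-type genotype and 3 libraries of Ocln knockout genotype. Ocln encodes occludin, a membrane protein of tight junctions, and the study as a whole concerns its part, with the Rab11 partner FIP5, in organising the mitotic spindle. The strain, how the Ocln allele was made and in which cells, whether the mice were virgin, whether a library held 1 mouse or a pool, and how luminal cells were separated remain not given in the sources used here. All p-values thus weigh the difference between genotypes against a spread that DESeq2 estimated from these libraries, drawn for most genes toward a trend. Some of that spread may be technical.

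Milk casein is a mixture of phosphoproteins that pack with calcium phosphate into micelles. The alpha and beta caseins, encoded by Csn1s1, Csn1s2a, Csn1s2b and Csn2, bind calcium and would precipitate alone, and kappa-casein, encoded by Csn3, coats the micelle and keeps it dispersed. Whey is the soluble fraction, to which Lalba gives alpha-lactalbumin, the partner of a galactosyltransferase in lactose synthesis, and Wap gives whey acidic protein. Glycam1 encodes a mucin-like glycoprotein that is secreted in milk and is also made by the high endothelial venules of lymph nodes. Prolactin drives most of these genes through JAK2 and the transcription factor STAT5, together with glucocorticoid and with factors such as ELF5, NFIB and C/EBP-beta. Their RNA is most abundant in late pregnancy and lactation.

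STAT5 binds the letters TTCNNNGAA, in which N is any base, so the promoters of the members were read for them. RefSeq promoter windows on GRCm38.p6 run from 250 bases before to 50 bases after a gene's start, and 6 of the 8 members matched one, all but Csn1s2b and Csn3. The letters read the same on both strands and stood in 4 of the 6 windows, against 8.3 percent of all 32851 windows. The sites are shown with 10 bases on either side because they let the casein promoters be compared. Each is written 5′ to 3′ on the gene's own strand, and capitals mark the 9 bases of the match.
Csn1s1: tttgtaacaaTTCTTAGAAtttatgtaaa
Csn1s2a: ttatagtgctTTCTTAGAAttacaatgac
Csn2: tcacgtagacTTCTTGGAAttgaagggac
Glycam1: gccaactcatTTCCCAGAAacaccaattc

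The match of Csn1s1 lay at chr5:87666108-87666116 on the plus strand and that of Csn2 at chr5:87699510-87699518 on the minus strand, 100 and 93 bases before their RefSeq starts. That of Csn1s2a lay at chr5:87774470-87774478 on the plus strand, 20 bases after the RefSeq start but 97 bases before the start of the gene in GENCODE M21. In GENCODE M21 the Csn2 gene starts further upstream, which puts its match 112 bases after that start, so the distance of a match depends on the annotation for Csn2 and Csn1s2a. Csn1s1 and Csn1s2a held the same 9 letters. The Glycam1 match, at chr15:103565218-103565226 on the minus strand, stood 145 bases before its start. The windows of Wap and Lalba held no match, which says only that these letters are not in those 300 bases. The 250 bases before the start of Csn1s1 (chr5:87665958-87666207, plus strand) and of Csn2 (chr5:87699426-87699675, minus strand) follow, as those of the caseins with the most negative fold changes, neither of which passed the test.
Csn1s1: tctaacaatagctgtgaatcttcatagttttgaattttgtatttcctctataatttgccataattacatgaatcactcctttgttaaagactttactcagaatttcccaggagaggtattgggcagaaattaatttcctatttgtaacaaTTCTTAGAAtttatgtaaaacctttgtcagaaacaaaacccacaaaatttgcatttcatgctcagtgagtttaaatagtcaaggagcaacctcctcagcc
Csn2: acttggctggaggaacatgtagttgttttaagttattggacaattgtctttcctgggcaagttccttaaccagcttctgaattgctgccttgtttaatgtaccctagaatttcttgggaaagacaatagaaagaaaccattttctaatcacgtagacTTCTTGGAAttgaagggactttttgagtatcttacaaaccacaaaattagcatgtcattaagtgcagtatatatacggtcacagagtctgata

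The deposited table gives 1 comparison, knockout over control, with no value per library, so which library was high or low and whether the genotypes overlap cannot be read. A level below is the authors' mean of normalized counts over the 6 libraries. The level of each genotype was estimated from that mean and the fold change. How deeply each library was sequenced is unknown. In the check of the genotype, Ocln stood at 44.9 percent of the control level in the authors' deposited table (95 percent interval 35.9 to 56.2). Ocln RNA was thus lower but still present, and the source of what remained was not tested. The luminal label was met by Krt18 and Krt8, keratins of luminal cells, at 58513 and 31521 normalized counts per kb of transcript, against 127 and 52.8 for Krt14 and Krt5 of basal cells.

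The members differed widely in level. Per kb of the longest coding transcript in GENCODE M21, Csn3 stood at 12072 normalized counts, rank 148 of 16225 genes with a known length. Lalba followed at 1148, Glycam1 at 386 and Csn1s1 at 176. Csn2 stood at 58.9, Csn1s2a at 31.6 and Csn1s2b at 6.40. Csn3 was apart from Lalba, and Lalba from Glycam1, by more than 1 SD of each, taken from the spread within a genotype that the authors' standard errors imply. The remaining neighbours in this order overlapped within 1 SD. Csn1s1 ranked 7567 and Csn2 10918 on this scale. Csn3 alone held 92.8 percent of the summed level of the listed members. Wap is not among the listed genes, whose lowest mean level was 8.35, and its level was not analysed here. Csn1s2b, at a mean level of 10.7, was close to that lower end.

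Csn3 fell in the knockout, and it was the member that passed the test. Its estimated level was 26554 normalized counts in control and 11979 in knockout libraries, from a mean of 19266 in the authors' deposited table. The log2 fold change in the authors' deposited table was -1.15 ± 0.31 (SE, 3 libraries per genotype, DESeq2 adjusted p = 0.0246). The knockout level was 45.1 percent of control, with a 95 percent interval of 29.7 to 68.6 percent. By p-value Csn3 ranked 135 among all listed genes. The SE implies a spread between libraries of 1 genotype of 26.2 percent of the mean, against a median of 15.5 percent for the 200 genes nearest in level. The authors' scores were wider than a normal distribution by an inflation factor of 1.18, and with every score scaled down by the root of that factor the fall no longer passed (adjusted p = 0.0759). In these bulk libraries fewer kappa-casein-making cells and less Csn3 RNA per cell cannot be told apart. The gene spans 87925579 to 87932665 of chromosome 5 (GRCm38, plus strand), with 5 exons in its longest coding transcript. An antisense transcript, 1700066N21Rik, overlaps it there, and whether counting was by strand remains not given in the sources used here. Of 4166 different 50-base stretches in the annotated Csn3 transcripts, 41 also occur in transcripts of other genes.

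The calcium-binding caseins had lower values in the knockout too, but none of the 4 passed, and their errors were large. Csn1s1, alpha-S1-casein, was estimated at 407 normalized counts in control and 90.2 in knockout libraries. In the authors' deposited table its log2 fold change was -2.17 ± 0.94 (SE, DESeq2 adjusted p = 0.407, unadjusted p = 0.0204). This is 22.2 percent of control, with an interval of 6.20 to 79.2 percent, not adjusted for the number of genes. The authors themselves called Csn1s1 Down, as they did Csn3. In the authors' deposited table every gene they called had an unadjusted p under 0.05, and the smallest log2 change among those genes was 1.01 in size.

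Csn2, beta-casein, was estimated at 128 normalized counts in control and 28.7 in knockout libraries. In the authors' deposited table its value, -2.15 ± 1.65 (log2, SE, DESeq2 adjusted p = 0.793), was nearly that of Csn1s1, and its interval, from 2.38 to 212 percent of control, spans a fall and a rise. Csn1s2a, an alpha-S2-type casein, went from an estimated 44.0 to 14.2 normalized counts, at -1.63 ± 1.37 in the authors' deposited table (adjusted p = 0.823). Csn1s2b, the other alpha-S2-type casein, went from an estimated 13.2 to 8.14, at -0.70 ± 0.70 in the authors' deposited table (adjusted p = 0.873). No 50-base stretch of the Csn1s1, Csn1s2a or Csn1s2b transcripts occurs in another gene, so reads of the paralogs were not exchangeable over such a length.

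**Figure D1:**
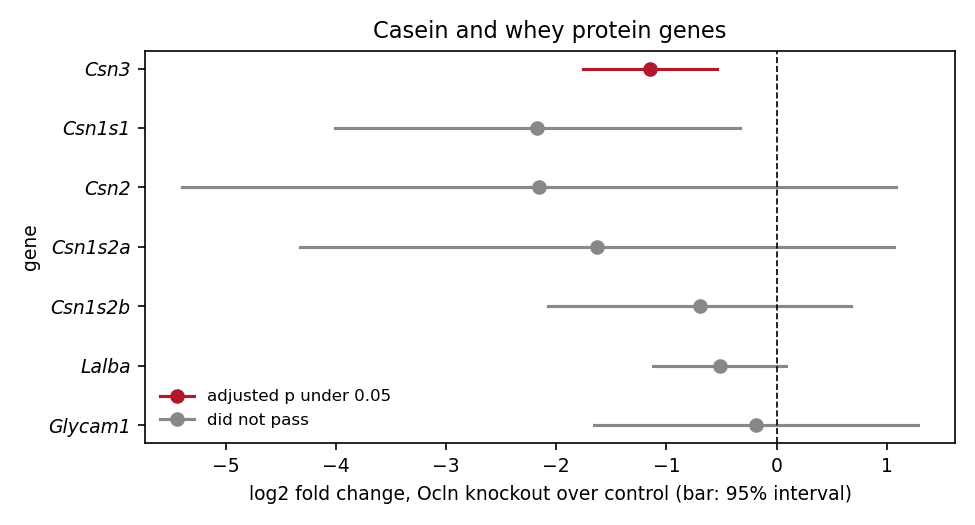
The horizontal axis is the authors' log2 fold change, knockout over control, of the 7 listed genes, with bars for the 95 percent interval (1.96 SE), and the vertical axis names the gene. All points lie left of 0, the interval of Csn3 ends at -0.54, and 5 of the 7 intervals cross 0.

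Among the listed whey genes neither passed, with or without adjustment. Lalba was estimated at 1041 normalized counts in control and 729 in knockout libraries, and its value in the authors' deposited table was -0.52 ± 0.31 (log2, SE, DESeq2 adjusted p = 0.662). Its interval was 46.0 to 106 percent of control. Lalba and Csn3 had almost the same SE, and Csn3 had the larger fold change. Glycam1 was estimated at 263 normalized counts in control and 231 in knockout libraries, at -0.19 ± 0.75 in the authors' deposited table (adjusted p = 0.982), and its interval of 31.7 to 243 percent of control leaves room for a change in either direction. Lalba and Glycam1 both lie on the minus strand of chromosome 15, Lalba from 98480400 to 98482721 and Glycam1 from 103562759 to 103565081 on GRCm38.

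Glycam1 RNA may come from luminal cells or from high endothelial venules, so the markers of those vessels were read beside it. Of 10 such genes, Glycam1 included, 7 were listed and 0 passed DESeq2, with or without adjustment at 0.05. Chst4, Fut7 and Madcam1, an enzyme pair and an addressin of these venules, were not among the listed genes. Per kb of transcript, the selectin genes Selp and Sele stood at 94.3 and 68.5 normalized counts, the chemokine receptor gene Ackr1 at 74.0, Ccl21a at 42.1, Cd34 at 39.7 and Il6st, a broadly expressed receptor gene, at 650, beside 386 for Glycam1. The log2 fold changes of those other 6 genes ran from Cd34 at -0.09 to Selp at 0.32 in the authors' deposited table. The summed level of the list was estimated at 6771 in control and 6500 in knockout libraries, mostly from Il6st. The part of these vessels in the Glycam1 level was not tested.

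Counted over the table, 1 of 7 listed members fell and 0 rose at an adjusted p under 0.05, with 0 higher without adjustment too, while 1.08 percent of all genes passed in either direction, 0.275 percent lower and 0.808 percent higher. At an unadjusted p under 0.05, 2 of the 7 were lower, Csn3 and Csn1s1, against 3.83 percent of all genes lower. The authors' call of Down took the same 2 members and 0.988 percent of all genes. Stricter settings took 0.641 percent of all genes and 0 members at an adjusted p under 0.01, and 0.701 percent and Csn3 with at least a doubling or halving required. With levels under 50 left out, 1.37 percent of the genes and Csn3 passed, with scores scaled for inflation 0.713 percent and 0 members. The log2 fold changes of the 7 members were all below 0 and had a median of -1.15, where 51.2 percent of all genes were below 0 and the median was -0.01. These 7 values come from the same libraries, and 5 of the genes are neighbours, so they are not 7 independent observations. The members were also chosen with earlier results of these data known, so the shares over all genes are not an unbiased comparison. The summed level of the members was estimated at 28450 normalized counts in control and 13080 in knockout libraries, or 46.0 percent, and Csn3 makes up most of both sums.

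The precision of the members was poor for their level. Of the 7, 6 had a larger SE than the median of the 200 genes nearest in level, with Csn1s2b the exception. Csn2 and Csn1s2a each had a larger SE than all 200 of their neighbours, Csn1s1 than 99.5 percent, Lalba than 97.5 percent and Glycam1 than 97 percent. In terms of spread between libraries of 1 genotype, the SE implies 140 percent of the mean for Csn2, 115 percent for Csn1s2a, 79.2 percent for Csn1s1 and 63.3 percent for Glycam1. The median for their neighbours in level was 25.5 percent around Csn2, 35.7 percent around Csn1s2a, 18.4 percent around Csn1s1 and 18.5 percent around Glycam1. Among the 12971 genes at a mean level of 50 or more, 114, or 0.879 percent, had a spread at least as large as that of Glycam1. Of these 114, 3 were members, Glycam1, Csn1s1 and Csn2, and the others were not, so a wide spread was not particular to the members. Larger differences between libraries of 1 genotype are thus implied for Csn2, Csn1s2a, Csn1s1 and Glycam1 than for most RNAs of like level. That reading takes genotype as the only term in the authors' model. Which libraries stood apart cannot be read from the table.

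**Figure D2:**
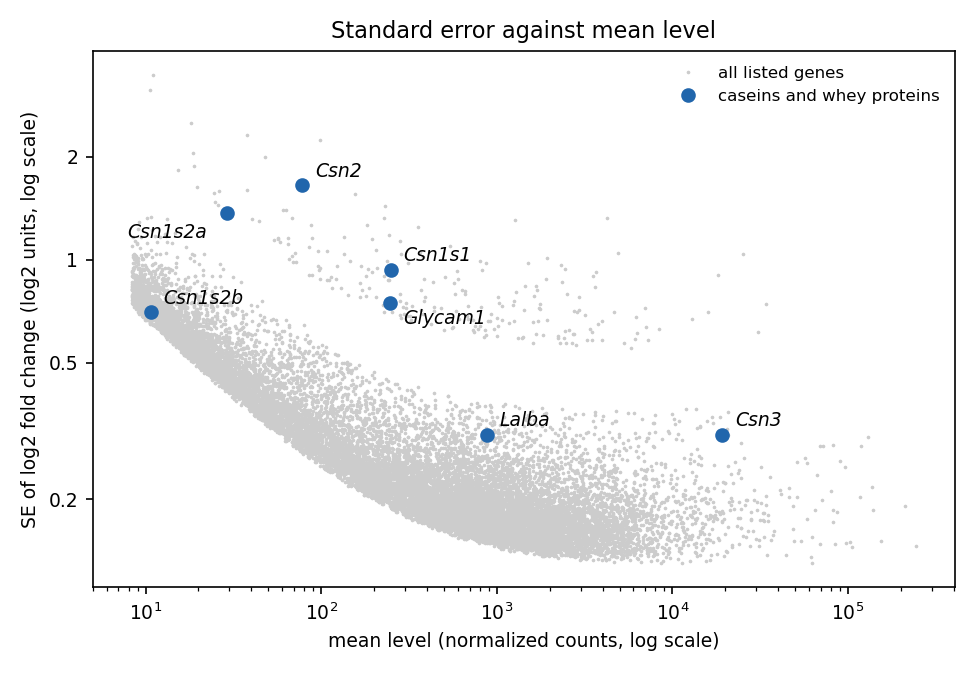
Each grey point is 1 of the 16701 listed genes, with its mean level in normalized counts on the horizontal axis and the SE of its log2 fold change on the vertical axis, both on log scales. Csn2, Csn1s2a, Csn1s1 and Glycam1 lie in a sparse upper band, Lalba and Csn3 near the top of the main band, and Csn1s2b within it.

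The 5 casein genes stand together in 266 kb of chromosome 5, on GRCm38 from the start of Csn1s1 at 87666208 to the end of Csn3 at 87932665. Csn1s1 runs to 87682578, Csn2 from 87692624 to 87699630 on the opposite strand, Csn1s2a from 87774567 to 87788797 and Csn1s2b from 87808082 to 87824426. Their log2 fold changes, in that order and ending with Csn3, were -2.17, -2.15, -1.63, -0.70 and -1.15 in the authors' deposited table. The values nearest 0 belonged to the pair at the Csn3 end, but no difference between members was tested. Within the cluster, 0 other genes are listed. Within 1 Mb of its ends 11 further genes are listed, and 0 of them reached even an unadjusted p of 0.05 per the authors' deposited table. Of these 11, 8 were above and 3 below 0, from Jchain at -0.42 ± 1.83 to Slc4a4 at 0.55 ± 0.35 in the authors' deposited table. Most of these 11 values were of the other sign than the caseins, but with none past the test their signs establish no contrast. The window with the cluster holds 43 protein-coding genes, 7 of them inside the cluster, while 16 genes of any type are listed, the 5 caseins included.

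**Figure D3:**
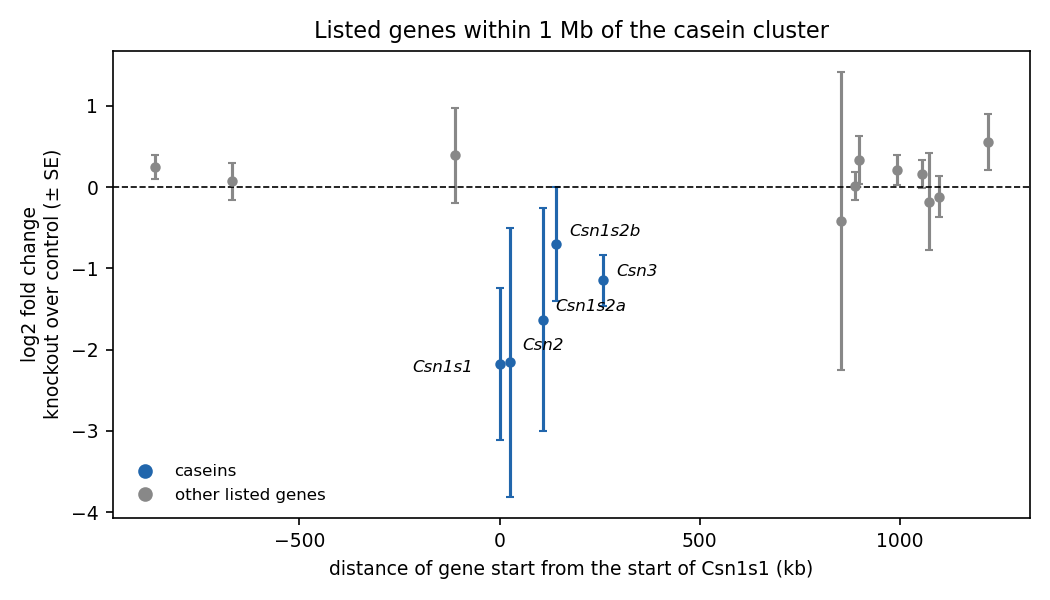
Listed genes within 1 Mb of the casein cluster are placed by the distance of their start from the start of Csn1s1 in kb, with the authors' log2 fold change ± SE on the vertical axis. The caseins, in blue, lie between -0.70 and -2.17, and the 11 other genes, in grey, between -0.42 and 0.55.

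The hormone pathway that drives milk protein genes showed 0 genes past the test. Of 20 listed genes of the prolactin, JAK2 and STAT5 pathway, 0 had an adjusted p under 0.05, and 1, Elf5, was higher at an unadjusted p under 0.05, as were 5.23 percent of all genes, and the median log2 fold change was -0.10. Prlr, the prolactin receptor, stood at -0.40 ± 0.26 (SE) in the authors' deposited table, or 76.0 percent of control (adjusted p = 0.717). Jak2, its kinase, stood at -0.07 ± 0.15, Stat5a at -0.25 ± 0.27 and Stat5b at -0.02 ± 0.18 in the authors' deposited table. Socs3, a feedback inhibitor, stood at -0.34 ± 0.32, and Cish, an inhibitor that STAT5 itself induces, at 0.15 ± 0.20 in the authors' deposited table. Cish was chosen after its value was seen.

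All 24 transcription factors of milk protein genes were listed and 0 passed. Without adjustment, 3 of them were higher and 1 lower at p under 0.05, against 5.23 and 3.83 percent of all genes. The higher ones were Ehf, Elf5 and Runx2, and the lower one was Hdac1. Ehf, the nearest to passing, stood at 0.75 ± 0.24 (SE, DESeq2 adjusted p = 0.095) in the authors' deposited table. Ehf, Runx2 and Hdac1 were named after their values were seen. The median of the 24 was 0.13. Elf5, a luminal progenitor factor that works with STAT5, had the sign opposite to the caseins, at 0.51 ± 0.17 (SE) in the authors' deposited table (adjusted p = 0.157). The glucocorticoid receptor gene Nr3c1 stood at 0.12 ± 0.17, Nfib at 0.27 ± 0.19 and Cebpb at 0.26 ± 0.26 in the authors' deposited table. A value that did not pass with 3 libraries per genotype does not show that a regulator was unchanged. The part of these regulators in the fall of Csn3 RNA was not tested, and their protein or phosphorylation was not measured.

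The other steps of making milk were read the same way. Of 14 lactose synthesis genes, Lalba included, 0 had an adjusted or an unadjusted p under 0.05, 11 had a negative sign and the median was -0.12. B4galt1, the galactosyltransferase that alpha-lactalbumin binds, stood at -0.29 ± 0.16 (SE) in the authors' deposited table (adjusted p = 0.611). Of 21 listed genes of casein phosphorylation, calcium supply and secretory transport, 0 passed, and the median was -0.08. At an unadjusted p under 0.05, 1 was higher, as were 5.23 percent of all genes. The chaperone genes Hspa5 and Calr, the list's highest in level, stood at 0.17 ± 0.20 and -0.06 ± 0.17 in the authors' deposited table.

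Some other secreted milk proteins rose. Of 21 listed, 7 rose, 0 fell and 14 did not pass, against 0.808 percent of all genes that rose. The list is broad, as it takes in milk fat globule proteins and the receptor genes Pigr and Fcgrt. Its counts and sums are therefore not those of 1 class of secreted product. The list was chosen with earlier results of these data known, so setting it against that share is not an unbiased comparison. Of the 21, 6 were below 0, 1 of them, the lipase gene Lpl, at an unadjusted p under 0.05 (-0.85 ± 0.38 in the authors' deposited table, named after its value was seen), and the median log2 fold change was 0.30. Those that rose were Ltf (lactoferrin), Trf (transferrin), Mfge8 and the mucins Muc1 and Muc15 of the milk fat globule, Pigr, which carries antibodies into milk, and Wfdc18. Trf, at 0.99 ± 0.26 (SE) in the authors' deposited table, and Mfge8, at 0.95 ± 0.26, had estimated levels that went from 17185 to 34124 and from 39662 to 76602 normalized counts. Pigr stood at 1.49 ± 0.34 in the authors' deposited table, or 280 percent of control. Spp1, osteopontin, had a negative value and an SE as wide as that of Csn1s1, -1.70 ± 0.96 in the authors' deposited table (adjusted p = 0.626), and was chosen after its value was seen. Their summed level was estimated at 147619 in control and 323675 in knockout libraries, against 28450 and 13080 for the caseins and whey proteins, and Ltf, which went from 20540 to 123631, made up 58.6 percent of the rise in that sum. With scores scaled for inflation 3 of the 7 rises still passed, and Trf, Mfge8, Muc15 and Wfdc18 did not, nor did the fall of Csn3.

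**Figure D4:**
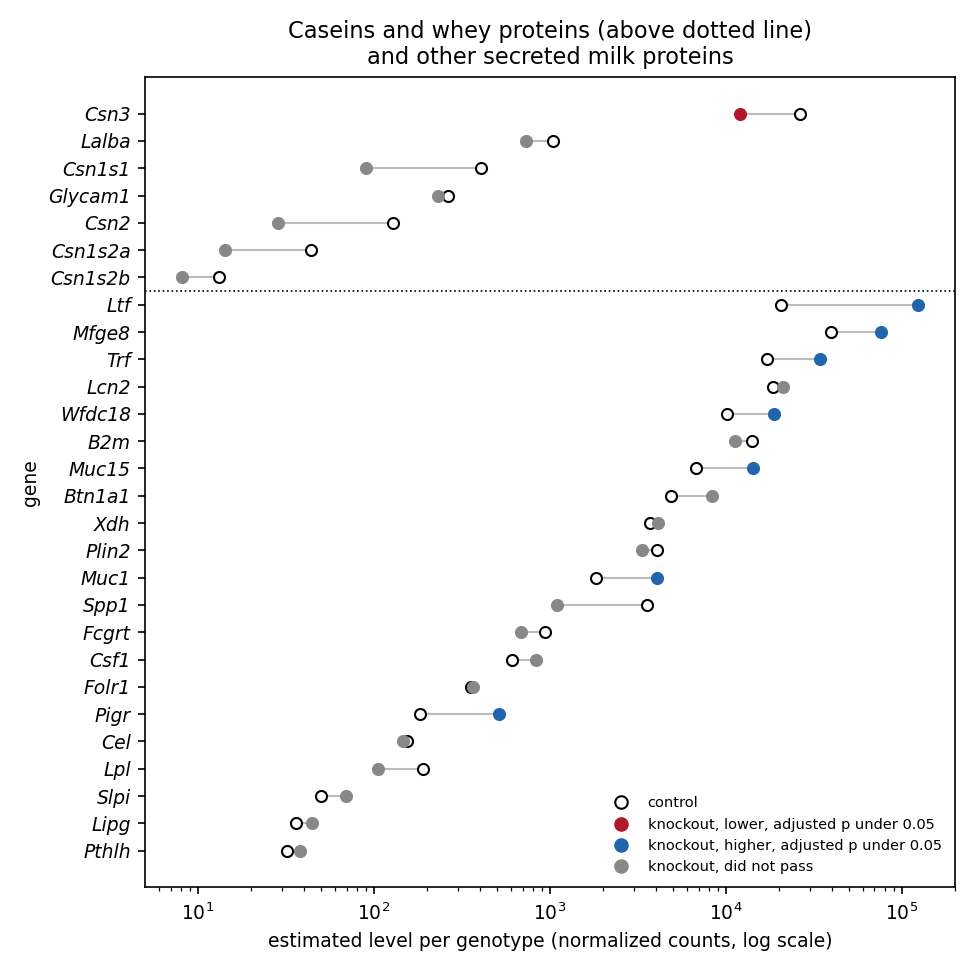
The horizontal axis is the estimated level per genotype in normalized counts on a log scale, open circles for control and filled circles for knockout, and each line of the vertical axis is 1 gene. Csn3, in red above the dotted line, goes from 26554 to 11979, while 7 other secreted milk proteins, in blue below it, lie to the right of their controls.

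Relatives of the unlisted Wap were few. Of 15 genes with the whey acidic protein four-disulfide core, 5 were listed, 1 rose and 0 fell, against 0.808 percent of all genes that rose. Wfdc18 rose, at 0.88 ± 0.25 (SE, DESeq2 adjusted p = 0.049) in the authors' deposited table, and no longer passed with scores scaled for inflation (adjusted p = 0.131). Of the 5, 4 were above 0 and 1 below, and the median log2 fold change was 0.70. The 1 below was Wfdc2, at -0.29 ± 0.34 in the authors' deposited table. Without adjustment, 2 of the 5 were higher at p under 0.05, Wfdc18 and Wfdc3, against 5.23 percent of all genes.

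Csn3 is also used as a marker of luminal progenitors, and there it went against its list. Of 19 listed progenitor markers, 5 rose, all of them among the secreted milk proteins named above, and 1, Csn3, fell. Over all genes 0.808 percent rose and 0.275 percent fell, but this list too was chosen with earlier results of these data known. With scores scaled for inflation Ltf and Pigr still passed, and Trf, Mfge8, Wfdc18 and Csn3 did not. At an unadjusted p under 0.05, 13 of the 19 were higher and 1 lower, against 5.23 and 3.83 percent of all genes. Of the 19, 17 had a positive sign, and the median was 0.75. The 15 listed markers of hormone-sensing luminal cells had 0 past the DESeq2 test, 1 lower at an unadjusted p of 0.05, 11 negative signs and a median of -0.40. Among pan-luminal markers 0 of 9 passed, 1 being higher and 1 lower without adjustment, with a summed level estimated at 352066 in control and 343603 in knockout libraries.

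Of the markers of other cells and of cycling cells, 4 single genes passed the test. Over all genes 0.275 percent fell and 0.808 percent rose. Without adjustment, 3.83 percent of all genes were lower and 5.23 percent higher at p under 0.05. Of 10 genes of cycling cells 0 passed, all 10 were negative, 5 were lower at an unadjusted p under 0.05, and the summed level was estimated at 4656 in control and 2322 in knockout libraries. Of 11 basal and myoepithelial markers 2 fell, Oxtr and Lgr5, 8 had a negative sign, and the sum was 2710 and 2194. Without adjustment, 1 of the 11 was higher at p under 0.05. Of 9 fibroblast markers 1 fell, Dcn, and the sum was 1687 and 1491. Of 8 neutrophil markers 4 were listed and 1 rose, S100a8, with sums of 62.1 and 203. All 4 were above 0, and 3 of them, S100a8 included, were higher at an unadjusted p under 0.05. Ly6g, Retnlg, Elane and Cxcr2 are not among the listed genes. Macrophage markers had 0 of 10 past the test, 1 higher without adjustment, and sums of 1720 and 2404, and endothelial markers 0 of 8 and 4409 and 4213. Of 9 T and NK cell markers 4 were listed and 0 passed, with sums of 207 and 310, and of 7 adipocyte markers 2 were listed and 0 passed. Of 9 B and plasma cell markers 6 were listed and 0 passed, with a median of 1.41 and a median SE of 1.24. In the endothelial, T and NK cell, adipocyte and B cell lists, 0 genes reached an unadjusted p of 0.05 by DESeq2 either. The part of any of these in the values of the caseins was not tested.

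Transcript length moved with the scores. The listed members have coding transcripts of 641 to 1668 bases, against a median of 2780 over the genes with a known length, and fall in the 2nd to the 6th of 20 equal bins of length. In those bins the median Wald score, the fold change over its SE, ran from -0.34 to -0.16, and over all genes it ran from -0.28 in the shortest bin to 0.46 in the longest. With the bin medians taken out, 1.04 percent of genes passed. Csn3 stood at a log2 fold change of -1.10 and passed (adjusted p = 0.038), Csn1s1 at -1.96 and Csn2 at -1.80 did not, and Glycam1 turned to 0.067.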

How the data were processed

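RNA of mouse mammary luminal cells was sequenced in 3 control and 3 Ocln knockout libraries. DESeq2, without a version, and build mm10 are named in the submitters' processing notes, while aligner, counter, annotation and formula remain not given in the sources used here. For each gene the authors' deposited table holds, per the file headers, the mean level, a signal in normalized counts, the log2 fold change and its SE in log2 units, and the Wald score. It also holds the p-value, its adjusted form and, as another kind of value, the call made by the authors. The direction is that of the table's name. With no values per library, no new test per gene was made.

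Computed with Python 3.11.15, pandas 2.3.3 and scipy 1.17.1 were 95 percent intervals (1.96 SE), the level of each genotype (from mean and fold change, with equal group sizes) and the spread within a genotype. The levels and the spread were run on simulated counts whose SE came from a set dispersion by the same formula. That run checks the arithmetic only, and it did not cover the intervals. The spread assumes a negative binomial count, size factors of 1 and genotype as the only term. DESeq2 draws most genes' dispersion toward a trend, so it is not each gene's own spread. Lengths and coordinates are from GENCODE M21.

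The members and the 20 other gene lists were chosen with earlier results of these data known. Named are the members, Ocln, and, of the lists, genes called at an adjusted p under 0.05, the 2 of highest level and set regulators, where a result turned on them. Alternatives were an adjusted p of 0.01, at least 1 log2 unit of change, a mean level of at least 50, the authors' call, scores scaled for inflation (divided by the root of 1.18, their median square over that of a standard normal) and scores less the median of 20 length bins.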

Additional observations from a re-analysis of the deposited data

How the results depend on the processing

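The count of members called at an adjusted p under 0.05 was 1, Csn3, and stayed 1 with at least 1 log2 unit of change required, with genes of a mean level of at least 50 only (5 members left) and with the trend of the score with transcript length taken out. It was 0 at an adjusted p under 0.01, 2 by the authors' own call, which adds Csn1s1, and 0 with scores scaled for inflation. The genes the authors called had an unadjusted p under 0.05 and a log2 change of 1.01 or more in size. The settings of an adjusted p under 0.01 and of scores scaled for inflation raise the bar by construction. The fold changes of single members can differ only with the length trend taken out, where 6 of 7 kept their sign and Glycam1 changed it, to 0.067, and the cause was not tested. No paired analysis was possible because the table carries no value per library, and for the same reason leaving out a replicate was not run. Depth per library is unknown, and the limits of precision are those of the SE: for Csn2 and Csn1s2a the intervals reach from under 5 percent of control to above the control level.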
